A study of Mus musculus with 16 samples.

Results

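The replication-dependent histone genes were taken as all genes whose symbol in the count files begins with Hist1h, Hist2h, Hist3h or Hist4h, which gave 71 of the 47729 gene IDs listed for each library. They carry 70 symbols, because Hist2h2bb is listed under a pair of IDs. By the kind of histone in the symbol, 6 were linker histone H1 genes, 20 were H2A, 20 were H2B, 12 were H3 and 13 were H4 genes. RNA was sequenced from endothelial cells (ECs), hepatic stellate cells (HSCs), Kupffer cells (KCs, the resident macrophages of the liver) and hepatocytes (HEPs) of unchallenged livers of adult mice (8 weeks old by the study's default), in 16 libraries with 2 for each cell type and genotype label. The mice labelled KO combined Cdh5-CreERT2, a tamoxifen-inducible Cre driven by the promoter of an endothelial cadherin, with floxed alleles of the transcription factor gene Zeb2 and an eGFP reporter. The wild-type (WT) mice were littermates without Cre, and both received tamoxifen at 2 mg per day for 5 days. The deletion was therefore directed at ECs, and HSCs, KCs and HEPs labelled KO are cells from livers of such mice. Libraries are called by cell type, label and the number in their title.

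Core histones form the octamer around which DNA is wrapped, and linker histone H1 binds where the DNA enters and leaves it. The genes of this family are copied into many near-identical, mostly intronless units that lie in clusters, and their transcripts rise when a cell replicates its DNA. The mRNA of such a gene normally ends just after a short stem-loop that the stem-loop binding protein (SLBP) recognises, without a poly(A) tail. Several members can also give longer, polyadenylated transcripts, which are known from differentiated cells that no longer divide. Both library preparations named for these samples, a stranded mRNA kit in the labels of the samples and Smart-seq2 in the text of the series, start from the poly(A) tail, so the counts describe mainly the tailed fraction of histone RNA.

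The end signal was looked for in the transcripts of GENCODE release M21 on GRCm38, as a stem of 6 base pairs that opens with GG and closes with CC around a loop of 4 bases that begins with TT. It was present in 41 members, 22 to 59 bases after the stop codon with a median of 33, and in 39 of the 46 members whose transcript goes on for 60 bases or more after the stop codon. Within 150 bases after the stop codon, 15 of 18719 other protein-coding genes held it (0.0801%). It came in 6 forms, of which 4 are shown here in the member with most reads that carries each, with the stem in capitals.
Hist1h1c, chr13:23739512-23739527, plus strand, a form found in 23 members: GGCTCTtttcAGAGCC
Hist4h4, chr6:136803998-136804013, minus strand, a form found in 7 members: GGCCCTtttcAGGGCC
Hist1h3e, chr13:23561903-23561918, minus strand, a form found in 6 members: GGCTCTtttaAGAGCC
Hist1h4i, chr13:22040966-22040981, minus strand, a form found in 2 members: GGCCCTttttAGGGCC
The forms differ in the middle pairs of the stem and in the last base of the loop. The stem GGCCCT was found in H4 genes such as Hist4h4, Hist1h4d, Hist1h4h, Hist1h4i and Hist2h4, while the linker histone genes Hist1h1c, Hist1h1d and Hist1h1e and the H2A gene Hist3h2a carried GGCTCT.

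Libraries held 12872706 to 15690506 reads on genes, so the floor of 3 counts per library corresponded to 0.191 to 0.233 CPM, the usual scaling of a gene's count to the gene reads of its library. The summed marker lists of each of the 4 cell types were highest in the libraries labelled as that type, with EC markers at 21620 to 31596 CPM in ECs and 101 to 3207 CPM elsewhere. Zeb2 itself had 106 and 106 CPM in EC WT and 199 and 130 CPM in the EC libraries labelled KO. It was therefore not lower there, and a count over the whole gene, which includes exons outside the floxed one, does not check the deletion. The paper describes the deletion in ECs as efficient, at the mRNA level and by the fraction of ECs that gained eGFP. Reads that aligned to more than 1 place were 26.2% to 49.9% of the aligned reads and were highest in HEPs, at 39.8% to 49.9%.

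The family received 23182 reads over the 16 libraries, and a few members held nearly all of them. The 2 with most reads, Hist1h2bc and Hist1h1c, held 69.4%, and the top 10 held 92.6%. In contrast, 10 members had no read in any library, 28 had 1 to 15 reads in all, 33 had 16 or more and 14 had 100 or more, with a median of 9 reads per member. Only 8 members had a read in every library. By class, H2B genes held 47.0% of the histone reads, H1 genes 33.2%, H4 genes 11.8%, H2A genes 7.07% and H3 genes 0.919%, although H3 has 12 members. The most-read H3 gene, Hist1h3e, had 62 reads over the 16 libraries. The large cluster on chromosome 13, Hist1, has 56 members and took 83.9% of the reads, Hist2 with 11 members took 6.91%, Hist3 with 3 members took 5.48%, and Hist4h4, the only Hist4 gene, took 3.72%.

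The reads lay largely on members whose annotated transcript runs far past the stop codon. The 24 coding members with 200 or more annotated bases after the stop codon held 94.5% of the histone reads, with a median of 68.5 reads each. Of these, 10 had 100 reads or more. The 41 coding members with fewer than 200 such bases had a median of 3 reads, and 2 of them, Hist1h2ba and Hist1h4h, had 100 reads or more. In Hist1h1c, 840 bases follow the stem-loop, in Hist3h2a 1643 and in Hist4h4 2445. A polyadenylation signal of the letters AATAAA was present after the stem-loop in 12 members, among them these 3 genes, Hist1h2be and Hist2h4. No stem-loop of the form searched was found in Hist1h2bc or Hist2h2be, whose annotated transcripts have 742 and 2192 bases after the stop codon. These annotated lengths describe gene models, and where the transcripts ended in these cells was not tested. The reads compared here are not scaled to transcript length. A longer model can collect more reads, and the part of length and of shared sequence in this difference was not tested.

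**Figure D1:**
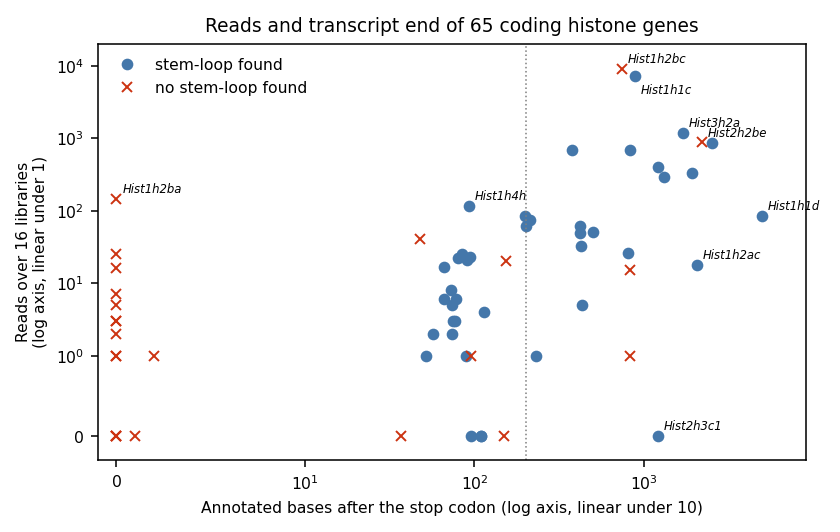
Reads of each coding member over all 16 libraries (vertical log axis, linear under 1 read) against the annotated bases after its stop codon (horizontal log axis, linear under 10 bases), with 1 point per gene, circles where a stem-loop was found and a dotted line at 200 bases. Members with 200 or more bases after the stop codon hold 94.5% of the histone reads and have a median of 68.5 reads, against 3 reads for the others. Reads are not scaled to transcript length.

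How well a member can be counted depends on how much of its sequence is its own. Of the 65 protein-coding members, 44 encode the same protein as another member, and all 13 H4 genes encode one and the same protein. The median member had 45.0% of its windows of 50 bases in no other transcript. This share was 32.4% to 100% in the 14 members with most reads, with a median of 76.6%, and had a median of 3% in the 10 members at 0. Of those 10, 5 had no window of their own, and 5 lay wholly inside other gene models, namely Hist2h2aa1, Hist2h2aa2, Hist2h3b, Hist2h3c1 and the coding Hist2h2bb. Reads that fit several places or several gene models can be set aside in counting, so a count of 0 in these members does not show that they were silent. Levels of other members that share windows with other transcripts, the H4 genes among them, are to that extent uncertain for the same reason. These include Hist1h2bc, with 69.4% of its windows in no other transcript, and Hist3h2a, with 68.5%.

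The summed level of the family was highest in HEPs. It was 153 ± 19.5 CPM (SD, n = 4 libraries) in HEPs, 86.8 ± 20.1 in KCs, 82.4 ± 5.97 in HSCs and 67.2 ± 13.3 in ECs. The HEP libraries, at 140 to 181 CPM, did not overlap those of the other cell types, at 53.1 to 111 CPM, whereas ECs, HSCs and KCs overlapped one another. The difference lay in Hist1h2bc and Hist1h1c, which made up 82.8% to 93.5% of the histone reads in HEPs and 33.8% to 56.8% in ECs. The remaining members together had 9.10 to 25.8 CPM in HEPs, 24.3 to 35.8 in KCs, 25.6 to 52.8 in HSCs and 32.0 to 39.4 in ECs. On plain library totals HEPs then had the lowest range, which overlapped those of KCs and HSCs. The highest HEP value includes 8.12 CPM of Hist1h2al. This order was not examined with a scaling that sets the bulk of genes equal between libraries. In bulk libraries, fewer cells of a type with such RNA and less of it per cell cannot be told apart.

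**Figure D2:**
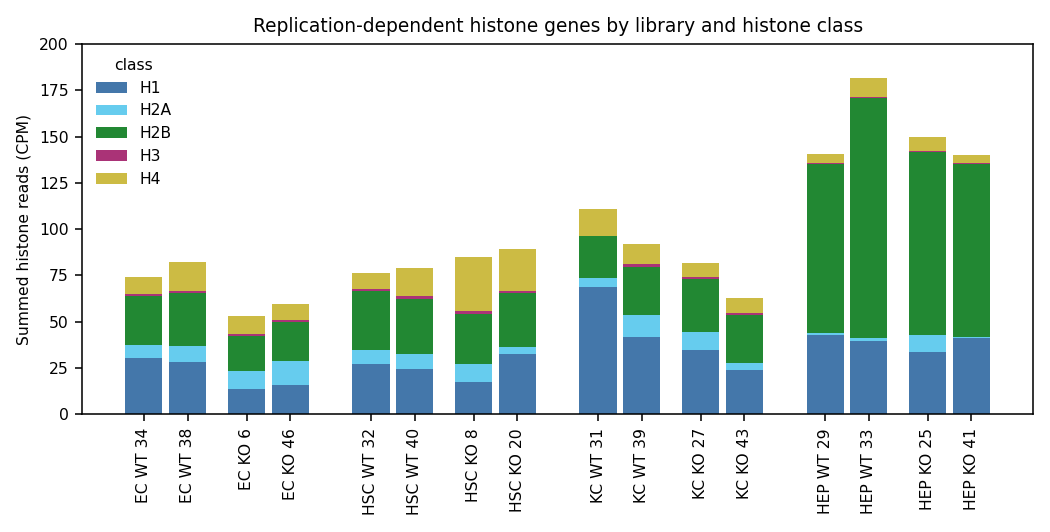
Summed CPM of the histone genes in each of the 16 libraries, split by histone class, with libraries grouped by cell type and label. H2B reads make up most of the HEP bars, at 90.9 to 130 CPM against 18.7 to 32.1 CPM in the other cell types, and H3 reads stay at 0.201 to 1.66 CPM in all libraries.

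By mean level per transcript length, the same pair was on top in all cell types. In CPM per kb of exon, Hist1h1c had 12.2 ± 5.00 and Hist1h2bc 10.7 ± 6.01 in ECs (SD, n = 4), and their libraries overlapped each other and those of the next members. In library EC KO 46, Hist1h2al at 11.3 and Hist2h2bb at 8.01 CPM per kb were above Hist1h2bc at 5.95. In HSCs the order was Hist1h2bc at 18.3 ± 2.95 and Hist1h1c at 14.6 ± 3.33, again overlapping, with the next member, Hist1h4d, at 3.92 ± 1.77 and separated from both. In KCs Hist1h1c had 25.5 ± 11.5 and Hist1h2bc 15.2 ± 1.83, which overlapped, and Hist1h4i followed at 6.32 ± 2.29. Only in HEPs did the libraries of the top members separate, with Hist1h2bc at 84.9 ± 16.2 and Hist1h1c at 24.5 ± 2.46 CPM per kb. There Hist1h1c overlapped Hist1h2al, which had 24.0 CPM per kb in KO 25, against 21.1 for Hist1h1c.

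Cell types were compared over all 16 libraries, as the mean of the WT and KO label groups of each, with the quasi-likelihood test of edgeR and Benjamini-Hochberg adjusted p-values. Of the 71 members, 17 had enough reads to be tested among 17214 genes. Values are log2 differences after TMM scaling, which sets the bulk of genes equal between libraries. HEPs give a few genes a large part of their reads, and plain library totals moved the median of all genes by 1.31, 1.07 and 0.99 against HEPs in ECs, HSCs and KCs, so a difference from HEPs is relative to that scaling.

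HEPs stood apart by Hist1h2bc, which encodes an H2B. It had 84.9, 126, 91.2 and 90.5 CPM in the HEP libraries WT 29, WT 33, KO 25 and KO 41. In the other 12 libraries it ranged from 6.55 to 24.7 CPM, so the HEP libraries were all higher. The difference was -4.54 (SE 0.23, adjusted p = 4.12e-08) for ECs minus HEPs, -3.35 (SE 0.22) for HSCs minus HEPs and -3.54 (SE 0.22) for KCs minus HEPs. Hist1h2bc was also lower in ECs than in HSCs, by -1.18 (SE 0.20, adjusted p = 0.00110), and than in KCs, by -0.999 (SE 0.20, adjusted p = 0.00262). Both of these calls were lost in the WT libraries alone.

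Hist1h2ba, the H2B known from the testis, was likewise higher in HEPs at low levels. Its counts there were 26, 21, 33 and 11 reads, or 0.741 to 2.13 CPM, against 0 to 10 reads and at most 0.640 CPM elsewhere. The differences were -4.50 (SE 0.97) for ECs, -2.90 (SE 0.89) for HSCs and -3.33 (SE 0.91) for KCs minus HEPs, with adjusted p = 0.00176, 0.0143 and 0.00795. The difference from HSCs held under 5 of 13 alternatives.

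Hist1h1c, which encodes the linker histone H1.2, was higher in KCs and HEPs than in ECs. Its libraries had 11.6 to 27.1 CPM in ECs, 15.6 to 27.0 in HSCs, 23.6 to 65.2 in KCs and 32.9 to 41.4 in HEPs. ECs and HEPs did not overlap, with a difference of -2.47 (SE 0.28, adjusted p = 1.15e-05), and neither did HSCs and HEPs, with -1.87 (SE 0.28). ECs were lower than KCs by -1.42 (SE 0.27, adjusted p = 0.00177) and HSCs lower than KCs by -0.82 (SE 0.27, adjusted p = 0.0274), although the libraries overlapped and the latter call held under 7 of 13 alternatives. Between KCs and HEPs the value was -1.05 (SE 0.27, adjusted p = 0.00558) after TMM and -0.01 with plain library totals, so this difference rests on the scaling.

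Among the H4 genes the cell types differed gene by gene, although all of them encode one protein. Hist4h4, on chromosome 6, had 0.202 to 0.516 CPM in HEPs, 0.923 to 1.96 in KCs, 1.81 to 5.90 in ECs and 4.10 to 18.3 in HSCs. HSCs were higher than HEPs by 3.47 (SE 0.52, adjusted p = 1.17e-04) and higher than KCs by 2.46 (SE 0.48, adjusted p = 0.00149). ECs were higher than HEPs by 1.89 (SE 0.50) and lower than HSCs by -1.58 (SE 0.46, adjusted p = 0.0250), a call that held under 5 of 13 alternatives. Hist1h4i went another way, with 3.39 to 6.98 CPM in KCs and 2.23 to 6.68 in HEPs against 0.696 to 2.50 in ECs and HSCs. ECs were lower by -3.17 (SE 0.58) than HEPs and by -2.31 (SE 0.57) than KCs. HSCs were lower by -2.51 (SE 0.57) than HEPs and by -1.65 (SE 0.55) than KCs, the latter under 6 of 13 alternatives. Hist1h4h, with at most 16 reads in a library, was lower in KCs than in HEPs, by -3.60 (SE 0.98, adjusted p = 0.00791), and in ECs than in HEPs, by -2.61 (SE 0.91, adjusted p = 0.0262), the latter in 3 of 13 alternatives. In CPM its libraries overlapped in both comparisons, at 0 to 0.671 in KCs, 0.0695 to 1.24 in ECs and 0.574 to 0.955 in HEPs.

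Of the Hist3 genes on chromosome 11, Hist3h2a was lowest in HEPs. This H2A gene had 0.404 to 1.30 CPM in HEPs and 1.35 to 11.1 CPM in all other libraries, which did not overlap. It was higher by 1.82 (SE 0.51) in ECs, 1.79 (SE 0.51) in HSCs and 1.43 (SE 0.51) in KCs, with adjusted p = 0.00927, 0.0102 and 0.0314, the last of which held under 8 of 13 alternatives. Its neighbour Hist3h2ba, an H2B gene, had 19, 11, 4 and 20 reads in KCs, 4, 14, 2 and 0 in ECs, 1 read in all HSC libraries together and 0 in HEPs. KCs were above HSCs (adjusted p = 0.0140, held under 9 of 13 alternatives) and, at 0.820 ± 0.495 normalised CPM (SD, n = 4), at least 2.23-fold higher than the floor in HEPs (adjusted p = 0.0128). The H2A gene Hist1h2ae was lower in HSCs, with 4 reads in all, than in KCs, with 13, 2, 25 and 15 reads (-3.71, SE 1.17, adjusted p = 0.0234), a call that held under 6 of 13 alternatives.

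A smaller share of the tested members than of all genes passed in all 6 comparisons of cell types. For ECs against HSCs 0 of 17 were higher and 2 lower, while 13.3% and 12.8% of all genes tested were higher and lower. For ECs against KCs these were 0 and 3 (17.5% and 14.5%), for ECs against HEPs 2 and 5 (33.2% and 25.5%), and for HSCs against KCs 1 and 4 (22.3% and 20.6%). For HSCs against HEPs 2 were higher and 4 lower (34% and 24.4%), and for KCs against HEPs likewise 2 and 4 (29.3% and 26.3%). The counts of members called were therefore near or under the background, and the split depended on scaling. With plain library totals 5 members were higher and 4 lower in ECs than in HEPs, 3 and 3 in HSCs, 3 and 3 in KCs, and 0 and 1 for ECs against HSCs. None of the 29 single calls changed sign under 13 alternatives.

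**Figure D3:**
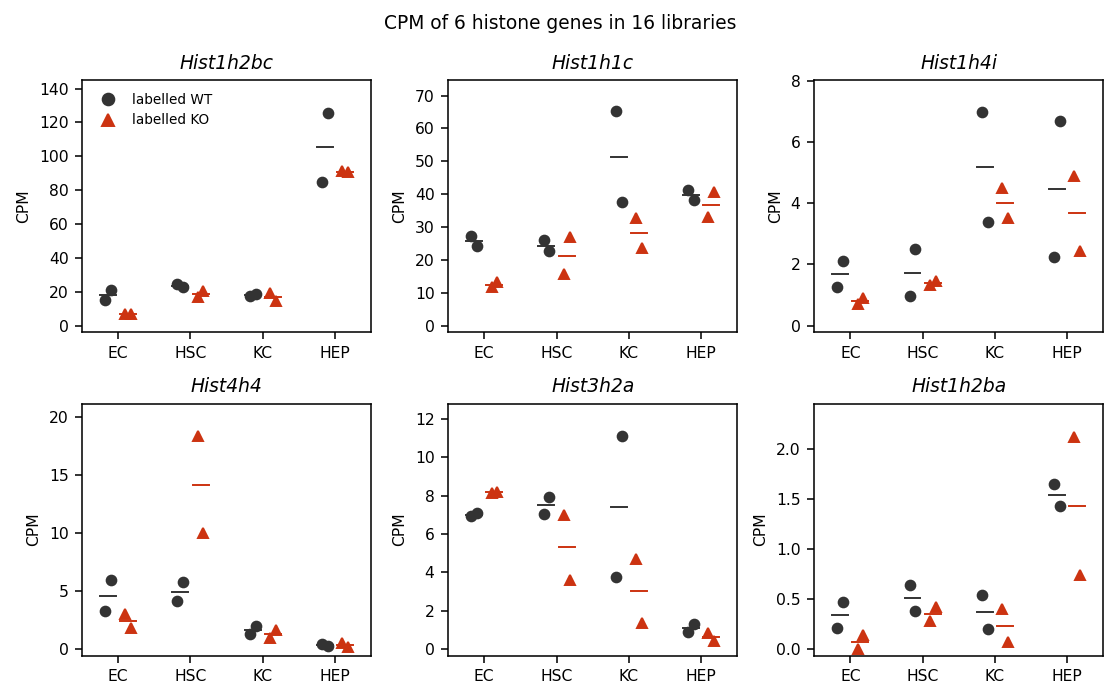
CPM of 6 histone genes in each of the 16 libraries, 1 gene per panel on a linear axis, by cell type (horizontal); points are libraries, with circles labelled WT and triangles labelled KO, and lines are the means of 2 libraries. Hist1h2bc lies at 84.9 to 126 CPM in HEPs and at most 24.7 CPM elsewhere, while Hist4h4 and Hist3h2a lie lowest in HEPs, at up to 0.516 and 1.30 CPM.

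The libraries of a group differed more in the median histone gene than in the median of all genes in all 8 groups. The median absolute log2 difference between the 2 libraries of a group was 1.08 for the 11 tested members and 0.56 for all genes in KC WT, 0.81 and 0.46 in KC KO, 0.75 and 0.44 in HSC KO, 0.61 and 0.37 in HEP WT and 0.81 and 0.38 in HEP KO. In EC WT (0.49 and 0.47), EC KO (0.44 and 0.34) and HSC WT (0.44 and 0.39) the values were closer. The EC WT median includes Hist2h2bb and Hist1h2al, which had no reads there and so no difference. The share with a difference above 1 was lower in members than in all genes in EC WT (16.7% and 22.0%), HSC WT (18.2% and 19.9%) and HSC KO (9.09% and 22.7%). It was higher in members in the other groups. The median biological coefficient of variation was 74.7% for members and 39.4% for all genes in KCs, 52.0% and 30.4% in ECs, 51.6% and 34.2% in HSCs and 53.8% and 30.4% in HEPs. The members also have fewer reads than most genes tested, and the part of that in their spread was not tested. Among the members tested, the H4 gene Hist2h4 had the widest difference in 4 of the 8 groups, with 0 and 25 reads in the HSC WT libraries and 3 and 53 in the KC WT libraries.

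The next comparison asked whether the histone genes differed between the labels KO and WT within a cell type. With 2 libraries per label that nothing in the labels ties to separate mice, p-values measure the spread between these libraries. Of the members, 12 were tested in ECs, 11 in HSCs, 11 in KCs and 10 in HEPs. In ECs 1 member, Hist2h2bb, which was tested only because of its reads in the KO group, was higher in the KO label and none was lower, while 0.116% of all genes tested were higher and 1.97% lower. In HSCs, KCs and HEPs edgeR called none, as it did of all genes (0% each). There, 1 member in HSCs and none in KCs or HEPs had an unadjusted p under 0.05. Of all genes, 8.75%, 5.09% and 7.11% had one in that order. DESeq2 called no member, beside 408, 72 and 32 of all genes. The median log2 difference of the tested members, KO label minus WT, was -0.70 in ECs (all genes -0.01), 0.46 in HSCs (0.02), -0.47 in KCs (-0.02) and -0.18 in HEPs (-0.02). The 12 members in ECs include Hist1h2al, which like Hist2h2bb was tested only because of its reads in the KO group.

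The Hist2h2bb row with reads, ENSMUSG00000050936, had none in any of the 8 WT libraries. In ECs labelled KO it had 110 reads in library 6 and 174 in library 46, or 7.66 and 12.1 CPM. In HSCs labelled KO it had 72 and 5 reads, in KCs labelled KO 7 and 0, and in HEPs 0 in all 4 libraries. Reads were thus present in 5 of the 8 libraries labelled KO, and in both of the EC group. In normalised CPM the EC libraries labelled KO had 9.99 ± 3.71 (SD, n = 2), at least 45.1-fold above the floor of the WT libraries, with an edgeR adjusted p of 0.0300. The gene passed the filter on low counts only through the KO group, where it is high, so it had to differ once tested, and the p-value adds little to the counts. The edgeR call was lost without library 46 of the EC KO group, in a fit that leaves 1 library in that group. Library 6 alone had 110 reads, beside 0 in the EC WT libraries. The call was also lost when all 16 libraries shared 1 fit (edgeR adjusted p = 0.160). With DESeq2 the adjusted p was 2.72e-07. Hist2h2bb could not be tested where 10 counts were required in every library.

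The row with reads belongs to another gene model than the coding sequence of the H2B, with which it shares bases. The ID lies at chr3:96269721-96279001 on the plus strand (GRCm38), and release M21 names it Gm42743, a lincRNA of 2 exons and 1511 bases. Exon 1, at chr3:96269721-96269977, shares 226 of its 257 bases with the intronless coding model of Hist2h2bb, ENSMUSG00000105827, at chr3:96269752-96270132. Exon 2, at chr3:96277748-96279001, holds 1254 bases or 83.0% of the transcript and lies 7770 bases away. All 1205 windows of 50 bases inside exon 2 were found in no other transcript. The coding model had 0 reads in all 16 libraries, and reads over the shared bases fit both models. The joined sequence of the row with reads is shown because it separates this transcript from the coding one, with exon 1 in lower case and exon 2 in capitals.
Hist2h2bb counted model, end of exon 1 (to chr3:96269977) and start of exon 2 (from chr3:96277748): tcgagcgcatcgcagGAATGAAGACTCCCC
Reads per exon were not analysed here, so which exon the 368 reads came from was not tested.

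The sequence before the start was looked at because this row differed by label, with RefSeq promoters on GRCm38.p6 of 250 bases before and 50 after each start, which matched 62 members. Of these, 85.5% held CCAAT, against 37.9% of all 27025 promoters, and 79.0% held TATAA, against 25.5%. The octamer ATTTGCAT, known as a feature of H2B promoters, was found in 6 of 16 H2B and 7 of 18 H2A promoters and in none of the H1, H3 or H4 promoters, against 1.75% of all promoters. Both strands were searched. The 250 bases before the start of Hist2h2bb carried all 3 motifs, given in capitals, with CCAAT at -79 and, on the minus strand as ATTGG, at -179, the octamer at -48 and TATAA at -32, none of which overlap.
Hist2h2bb, chr3:96269450-96269699, plus strand, 250 bases before the start: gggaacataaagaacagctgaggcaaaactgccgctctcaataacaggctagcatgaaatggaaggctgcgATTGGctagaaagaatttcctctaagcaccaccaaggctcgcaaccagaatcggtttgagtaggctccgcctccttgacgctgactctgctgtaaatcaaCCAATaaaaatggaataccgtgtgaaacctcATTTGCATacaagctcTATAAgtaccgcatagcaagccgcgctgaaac
These matches describe the letters in the window and do not show that a factor bound there.

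The genes around Hist2h2bb were read from the same fit. Within 500 kb, 88 genes are annotated and 31 were tested in ECs, of which edgeR called none higher and 1 lower, Car14 (-3.24, adjusted p = 0.0454), a carbonic anhydrase gene. The difference was above 0 in 23 and below 0 in 8, with a median of 0.33. The unspliced RNA gene Gm38227, which starts at chr3:96263785 and was chosen after its values were seen, had 0 and 0 reads in EC WT and 19 and 19 in EC KO, with an adjusted p of 0.143.

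Another member, Hist1h2al, was also without reads in all 8 WT libraries. It had 17 and 55 reads in ECs labelled KO, 40 and 1 in KCs, 36 and 0 in HSCs and 126 and 0 in HEPs. In each of the last 3 cell types nearly all its reads came from a single library. In ECs it was at least 11.6-fold above the floor, with an adjusted p of 0.120 by edgeR, and of 0.00526 by DESeq2. It too entered the test only through the KO group and only in ECs, so these p-values add little to the counts. Release M21 lists it as a processed pseudogene of 339 bases at chr13:51202727-51203065 on the minus strand. It was 99.41% identical to the H2A genes Hist2h2aa1 and Hist2h2aa2 of the Hist2 cluster, whose coding sequences equal each other and which both had 0 reads. The start of Hist2h2aa1 lies 24.2 kb from that of Hist2h2bb. The 2 differing bases are C120T and T216G, given as the base of Hist1h2al, its position counted from 1 at the 5′ end of Hist1h2al, and the base of Hist2h2aa1. The stretches around them are printed with that base in capitals, since they are what tells these genes apart.
Hist1h2al, chr13:51202926-51202966, minus strand: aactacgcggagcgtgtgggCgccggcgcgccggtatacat
Hist2h2aa1, chr3:96245695-96245735, plus strand: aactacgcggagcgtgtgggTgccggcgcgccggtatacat
Hist1h2al, chr13:51202830-51202870, minus strand: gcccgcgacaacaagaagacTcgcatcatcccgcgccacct
Hist2h2aa1, chr3:96245791-96245831, plus strand: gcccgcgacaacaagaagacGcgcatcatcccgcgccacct
Of the 290 windows of 50 bases in Hist1h2al, 94 were in no other transcript, so its count is uncertain, and whether its reads came from it or from a gene of the Hist2 cluster was not tested.

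**Figure D4:**
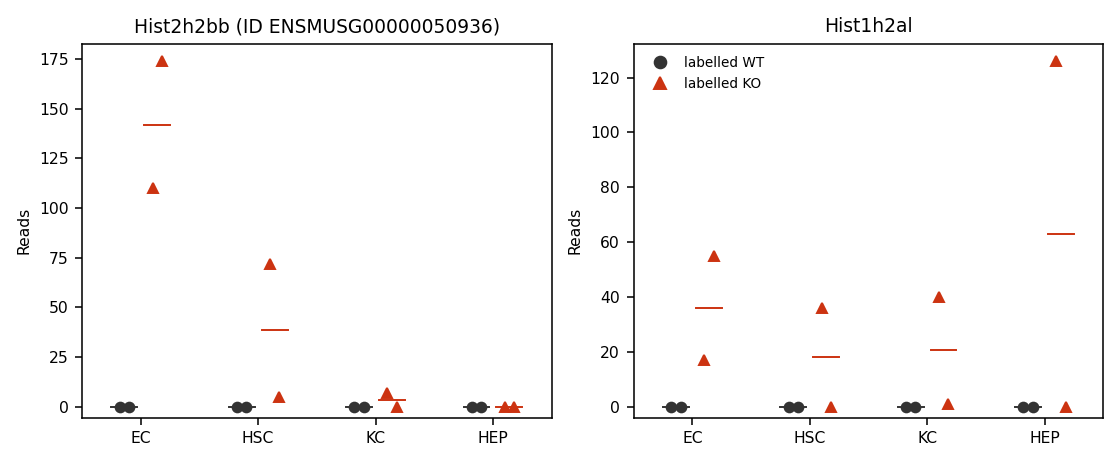
Reads of Hist2h2bb (ENSMUSG00000050936) and Hist1h2al in each of the 16 libraries by cell type, with circles labelled WT, triangles labelled KO and lines at the mean of 2 libraries. All 8 WT libraries are at 0 for both, Hist2h2bb reaches 174 reads in an EC library labelled KO, and Hist1h2al reaches 126 reads in a HEP library labelled KO.

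In all, 10 members had reads in libraries labelled KO and none in WT, of which the 8 others had at most 6 reads. Conversely, 5 members had reads in WT libraries alone, with at most 1 read each. The share of all genes with any read in 1 label only was not counted. At over 3 reads in a library, 3 members and 472 of the 47729 gene IDs had reads in KO libraries alone. At the same threshold 0 members and 622 gene IDs had reads in WT libraries alone.

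The most-read members were lower in the EC libraries labelled KO, but did not pass the test by edgeR. Hist1h2bc had 14.9 and 21.0 CPM in EC WT and 6.55 and 6.88 CPM in EC KO, a difference of -1.41 (SE 0.37, adjusted p = 0.145). It was called in ECs by DESeq2 (adjusted p = 0.0428), without the filter on low counts (0.0437) and with all 16 libraries in 1 fit (0.0264). Hist1h1c had 27.1 and 24.3 CPM in WT and 11.6 and 13.2 CPM in KO, a difference of -1.05 (SE 0.30, adjusted p = 0.180). The H2B gene Hist2h2be had -1.93 (SE 0.94, adjusted p = 0.411), with 7.40 and 1.94 CPM in WT and 1.81 and 0.695 CPM in KO, so the labels did not overlap but WT 38 and KO 6 were close. Hist1h2be (-1.28), Hist1h4i (-1.05) and Hist4h4 (-0.94) also had values below 0, with adjusted p-values above 0.5. Hist3h2a, at 6.91 and 7.07 against 8.15 and 8.20 CPM, had 0.23 (SE 0.42), Hist1h1e had -0.47 (SE 0.73), Hist1h4d had -0.03 (SE 0.58) and Hist2h4 2.45 (SE 1.47, adjusted p = 0.503). The groups did not overlap in 10 of the 12 members tested, 4 with the KO label higher and 6 with it lower, while 48.5% of all genes tested in ECs did not overlap. Among the 4 are Hist2h2bb and Hist1h2al, which had no reads in EC WT and entered the test only through the KO group. These could therefore not overlap.

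Hepatocyte markers moved with the label in the same EC libraries. Their 15 genes summed to 14166 and 29739 CPM in EC WT and to 3322 and 2362 CPM in EC KO, and 14 of 15 were lower in the KO label, with a median difference of -2.94. None of the 15 was at 0 in an EC library, and in HEPs they summed to 117486 to 135169 CPM. Hist1h2bc, the histone gene highest in HEPs, and Hist1h1c were among the members that were lower in EC KO, and the part of hepatocyte RNA in those values was not tested. Hist2h2bb had 0 reads in all HEP libraries. Of the other marker lists none had a gene called between labels by edgeR in any cell type. In ECs, HSC markers summed to 1389 to 1707 CPM in WT and 604 to 885 CPM in KO, with an unadjusted p under 0.05 in 9 of 10 and 6 lower by DESeq2. Lymphocyte markers summed to 140 and 310 CPM in WT and 94.9 and 72.4 CPM in KO, with 8 of 13 and 3 lower by DESeq2. KC markers summed to 513 to 820 CPM in WT and 1124 to 1148 CPM in KO, with an unadjusted p under 0.05 in 6 of 10 and 1 higher by DESeq2. DESeq2 also called 1 cholangiocyte and 1 erythroid marker lower in ECs, and none of the neutrophil or EC markers. Over all genes tested in ECs, 15.0% had an unadjusted p under 0.05, and DESeq2 called 983 of 14631 in either direction. The part of these marker differences in the histone values of ECs was not tested.

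In HSCs the values of some H4 genes were higher with the KO label. Hist4h4 had 4.10 and 5.76 CPM in WT and 18.3 and 9.96 CPM in KO, a difference of 1.49 (SE 0.46, adjusted p = 0.453). Hist2h4 had 0 and 1.60 CPM in WT and 5.12 and 3.53 CPM in KO, a difference of 2.41 (SE 1.55, adjusted p = 0.758). Hist1h2bc (-0.36, SE 0.30) and Hist1h1c (-0.20, SE 0.38) differed by little, and 8 of 11 members did not overlap between labels, beside 40.5% of all genes. Hepatocyte markers summed to 3943 and 9447 CPM in HSC WT and 774 and 1838 CPM in HSC KO, a median of -2.54, and 1 of them at 0 in the KO library 8. None of the 15 was called by edgeR, all 15 had an unadjusted p under 0.05, and DESeq2 called all 15 lower. Erythroid markers summed to 299 and 101 CPM in HSC WT and 27.2 and 9.89 CPM in HSC KO, and all 4 tested had an unadjusted p under 0.05 and were lower by DESeq2. Of the EC markers 6 of 10 had an unadjusted p under 0.05, with a median of -1.03, and DESeq2 called 1, as it did 1 HSC and 1 cholangiocyte marker. Over all genes tested in HSCs, 8.75% had an unadjusted p under 0.05, and DESeq2 called 408 of 14390 in either direction. The part of these marker differences in the histone values of HSCs was not tested.

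In KCs Hist1h1c had 65.2 and 37.5 CPM in WT and 32.7 and 23.6 CPM in KO, a difference of -0.96 (SE 0.42, adjusted p = 0.933). Hist1h1e had -2.09 (SE 1.09) and Hist2h2be 0.999 (SE 0.69), and 5 of 11 members did not overlap, beside 37.3% of all genes. Neutrophil markers summed to 19.9 and 22.8 CPM in KC WT and 214 and 23.4 CPM in KC KO. DESeq2 called 1 of 7 higher, beside 72 of 13867 genes in either direction. In HEPs the 10 members tested ranged from -0.77 for Hist3h2a to 0.12 for Hist1h4h, and 1 did not overlap, beside 40.8% of all genes. Hist1h2bc had -0.16 (SE 0.27) and Hist1h1c -0.04 (SE 0.22) there, the smallest standard errors among the label differences of the family. Erythroid markers summed to 174 and 274 CPM in HEP WT and 35.4 and 38.3 CPM in HEP KO. DESeq2 called 1 of 5 lower, beside 32 of 11548 genes in either direction.

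Whether the label difference itself differed between cell types was tested as an interaction over 16 libraries. Of the 17 members none was called by edgeR in any of the 6 pairs of cell types. Of all genes, 0.0349% were called for ECs against HSCs, 2.07% for ECs against KCs, 0.0697% for ECs against HEPs, 0.593% for HSCs against KCs, 0.0755% for HSCs against HEPs and 0.0116% for KCs against HEPs. Unadjusted p was under 0.05 in 2, 2, 1, 2, 0 and 0 members in that order. The smallest adjusted p, 0.160, belonged to Hist1h2bc in ECs against KCs (-1.28, SE 0.40). The call of Hist2h2bb in ECs is therefore not shown to be particular to ECs, and with WT at 0 throughout, the interaction of this gene could not be estimated with a usable error.

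The other genes of the pathway were taken from lists of histone variants, histone mRNA processing, chaperones, S phase and mitosis. Replication-independent histone variants, whose mRNA carries a poly(A) tail, gave far more reads than the family itself. On plain library totals their 11 genes summed to 1612 to 1969 CPM in ECs and 582 to 624 CPM in HEPs. The summed level of the replication-dependent genes had the opposite order, which lay in Hist1h2bc and Hist1h1c. The remaining members of the family had the same order as the variants, at 32.0 to 39.4 CPM in ECs and 9.10 to 25.8 CPM in HEPs. After TMM scaling, 3 of the 10 variants tested were higher and 2 lower in ECs than in HEPs, beside 33.2% and 25.5% of all genes. Their median difference was 0.15, beside 0.54 for all genes, so the order of the sums is given for plain totals only. H3f3b, which encodes the variant H3.3, alone had 253 to 324 CPM in HEPs and 743 to 846 CPM in ECs. H1f0, the linker histone of resting cells, had 389 to 593 CPM in ECs and 70.7 to 138 CPM in KCs.

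Genes of DNA replication and division were likewise not highest in HEPs, where the summed histone reads were. Those reads were 82.8% to 93.5% Hist1h2bc and Hist1h1c. The remaining histone genes had their lowest range in HEPs, at 9.10 to 25.8 CPM against 32.0 to 39.4 CPM in ECs. On plain library totals, the 30 S-phase genes summed to 228 to 275 CPM in HEPs and 300 to 381 in HSCs. They summed to 485 to 745 CPM in KCs and 541 to 932 in ECs. The 20 mitosis genes had 5.80 to 12.2 CPM in HEPs, 28.9 to 37.3 in HSCs, 128 to 174 in KCs and 72.2 to 229 in ECs. After TMM scaling, 12 S-phase genes were higher and 5 lower in ECs than in HEPs, 13 and 5 in KCs, and 8 and 7 in HSCs. The shares over all genes were 33.2% and 25.5% for ECs, 29.3% and 26.3% for KCs, and 34% and 24.4% for HSCs. The median S-phase difference from HEPs was 0.56 in ECs, 1.11 in KCs and -0.18 in HSCs, beside 0.54, 0.24 and 0.60 for all genes. The order of the sums was not examined after that scaling. Of the mitosis genes 14 were higher in ECs and 16 in KCs than in HEPs, and none was lower. Mki67, a marker of cycling cells, had 42.9 to 69.2 CPM in KCs and at most 1.03 CPM in HEPs. Slbp, whose product binds the stem-loops shown above, had 95.7 to 153 CPM in ECs and 12.8 to 15.4 CPM in HEPs.

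Between the labels none of these lists had a gene called by edgeR in any cell type. In ECs 10 histone variants were tested with a median of -0.01, 17 processing genes with 0.04, 17 chaperones with 0.33, 30 S-phase genes with 0.41 and 19 mitosis genes with 1.11, beside -0.01 for all genes and -0.70 for the 12 histone genes. Unadjusted p was under 0.05 in 1, 0, 2, 3 and 3 of them, beside 15.0% of all genes. DESeq2 called 1 S-phase and 1 mitosis gene, both higher, beside 983 of 14631 genes in either direction. In HSCs, KCs and HEPs DESeq2 called none in these lists, while 0 to 2 genes per list had an unadjusted p under 0.05. The shares over all genes were 8.75%, 5.09% and 7.11%. Of the 3 genes with most reads in each list, H3f3b had -0.04 (SE 0.24), H1f0 0.29 (SE 0.29) and H2afz 0.39 (SE 0.26) in ECs. Slbp had 0.38 (SE 0.23), Cpsf3, the nuclease of mRNA 3′ ends, 0.53 (SE 0.25) and Srrt -0.08 (SE 0.21). The replication genes Mcm3, Mcm6 and Pcna had 0.54 (SE 0.31), 1.14 (SE 0.31) and 0.48 (SE 0.24), and Mki67, Cdk1 and Top2a had 0.96 (SE 0.77), 1.28 (SE 0.31) and 0.25 (SE 0.64). The histone chaperone genes Atrx, Nap1l4 and Ssrp1 had 0.31, 0.20 and 0.11. Of 21 RNAs that lack a poly(A) tail, 1 was tested in ECs, with a sum of 1.88 to 2.65 CPM over the list.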

How the data were processed

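The authors deposited raw counts of reads per Ensembl gene, 1 file per library; per the submitters' processing notes, reads were trimmed with Trimmomatic 0.32, aligned to GRCm38 with HISAT2 2.1.0 and counted with HTSeq 0.9.1. Annotation release, strand setting and counting mode are not given in the sources used here. The counter's summary lines were left out of totals. From the counts, CPM over gene rows and CPM per kb of GENCODE M21 exons were computed. Tests were run with edgeR 4.0.16 in R 4.3.3 (filterByExpr, TMM, glmQLFit and glmQLFTest, Benjamini-Hochberg adjusted p under 0.05), within each cell type for the labels and over 16 libraries for cell types and interactions, after checks on simulated data. DESeq2 1.42.0 was an alternative. Replicates are libraries, and the floor of 3 counts covers counting error only. Sequences were analysed with Python 3.11.15, Biopython 1.88 and BLAST+ 2.17.0. GENCODE M21 held 99.1% of all gene IDs and 69 of 71 members.

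Named members are Hist2h2bb, the 12 with the highest mean CPM, those past the threshold between labels or in an interaction, and the 3 highest and 3 lowest called per pair of cell types; of other lists, the genes called between labels and the 3 with the highest mean CPM. Members and lists were chosen with earlier results of these data known. The alternative with plain library totals was added after the data had been seen. Markers of cholangiocytes, lymphocytes, neutrophils and erythroid cells were also summed.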

Additional observations from a re-analysis of the deposited data

How the results depend on the processing

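No paired analysis was possible because the labels compared share no library number. In ECs, DESeq2 called 3 of 12 histone genes between labels, beside 983 of 14631 genes tested. Without the filter on low counts edgeR called 3 of 48, beside 1259 of 23953. The 3 were Hist2h2bb, Hist1h2al and Hist1h2bc both times. Where 10 counts were required in every library, 0 of 8 were called, beside 489 of 12307. Without the filter 1 of 44 was called in HSCs (Hist2h2bb), beside 663 of 24592 genes. In HEPs it was 1 of 39 (Hist1h2al), beside 227 of 19933. The fitted log2 value of Hist2h2bb in ECs, 10.13, is no bound, and was 9.80 in 1 fit over all 16 libraries and 9.70 to 10.44 with 1 library left out; it was lost in the former and without the KO library 46. The calls of 2 genes between ECs and HSCs became 1 with plain totals, 1 without the filter, 0 in WT libraries alone and 1 to 2 with a library left out. The 3 between ECs and KCs became 1 in WT alone. The 5 between HSCs and KCs became 3 without the filter, 0 in WT alone and 1 to 5 with a library left out: 1 without HSC KO 8 or HSC WT 32, 2 without KC WT 31, and 3 without KC KO 27 or HSC WT 40. These need not be the same genes: without KC KO 27, 2 of the 5 were among the 3. The 6 each of HSCs and KCs against HEPs became 3 and 2 in WT alone, where fewer libraries entered. Summed CPM with TMM scaling was 55.9 in EC WT, 40.3 in EC KO, 66.5 in HSC WT, 73.3 in HSC KO, 290.0 in HEP WT and 277.9 in HEP KO. Without the 100 genes with most reads it was 107.9, 80.3, 119.7, 139.9, 299.9 and 275.7 in that order, and 162.3 in KC WT and 108.9 in KC KO.

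The signs that changed between labels did so with 1 library left out, in differences that were not called. These ranged from -0.26 to 0.27 for Hist1h4d in ECs; in HSCs from -0.74 to 0.19 for Hist1h1c, -0.40 to 0.99 for Hist1h4d and -0.85 to 0.48 for Hist1h4i; in KCs from -0.89 to 0.0054 for Hist4h4, -0.97 to 0.29 for Hist1h4i and -4.53 to 1.62 for Hist2h4; and in HEPs from -0.46 to 0.22 for Hist1h2bc, -0.27 to 0.16 for Hist1h1c, -1.18 to 1.33 for Hist2h2be, -0.87 to 0.81 for Hist1h4i, -1.13 to 0.15 for Hist1h1e and -0.89 to 1.09 for Hist1h2be. The other causes were not tested. With 2 libraries per group and a median of 9 reads per member, small differences were not detectable in most of the family.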

Other observations

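How unusual a gene without WT reads is among all genes was counted after the values of Hist2h2bb and Hist1h2al had been seen. Of the 47729 gene IDs, 472 were at 0 in all 8 WT libraries and had over 3 reads in a library labelled KO, 3 of them histone genes. Only 3 of the 472 had over 100 reads in all: Hist2h2bb with 368, Hist1h2al with 275, and Gcg, the glucagon gene, with 244, all of the latter in EC KO library 6. In the reverse direction 622 genes were at 0 in all 8 libraries labelled KO and had over 3 reads in a WT library, none of them a histone gene and none with over 100 reads.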
